A study of Mus musculus with 24 samples.

Results

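Glycolysis and the citrate cycle were followed through 36 mouse genes, chosen by symbol from a list of enzymes and transporters of both pathways. Each had to reach 1 CPM (reads of a gene scaled to a size set for its library) in at least 1 averaged column. All 36 did, out of 23420 genes listed in the deposited tables and 12294 that reached that level. The least abundant was Eno2, whose highest average was 4.0 CPM.

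The genes were read in bone marrow-derived macrophages of C57BL/6 mice labelled male and 3 months old, grown for 6 days with the growth factor M-CSF. Poly-A RNA was sequenced from 24 samples in 12 groups of 2. In the antagonist experiment (8 samples) cells received for 24 h either the DMSO:EtOH vehicle, IL-4 (20 ng/µl as labelled), GW9662, an antagonist of the nuclear receptor PPARγ whose dose the labels do not give, or IL-4 with GW9662. In the memory experiment (16 samples) wild-type and Pparg knockout cells were left without IL-4 or exposed to it for 24 h, washed, kept for another 24 h, and collected before or after 3 h of IL-4. This gives 4 states per genotype: unstimulated, first exposure (3 h of IL-4 in cells not exposed before), washed out (earlier IL-4 only) and repeat exposure (earlier IL-4, then 3 h of it again). The labels name no Cre driver and no deleted part of Pparg, and nothing in them ties a sample to a mouse of its own, so p-values measure only the spread between these samples. Pparg read 20.8 to 34.0 CPM in the wild-type and 21.1 to 40.9 CPM in the knockout-labelled groups, so its gene-level count does not check the label, and the libraries are called knockout-labelled.

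Glycolysis splits glucose to pyruvate in the cytosol, and lactate dehydrogenase turns pyruvate into lactate that leaves the cell. Pyruvate that enters the mitochondrion is made into acetyl-CoA by the pyruvate dehydrogenase complex and oxidised in the citrate cycle. Macrophages exposed to IL-4, a cytokine that signals through STAT6, are known for using mitochondrial oxidation, and those exposed to bacterial products for glycolysis with lactate release.

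Both tables hold averages of 2 libraries, which were taken apart into a deeper and a shallower library per group. Genes drew 15956909 to 27652179 reads per library in the antagonist experiment. For the memory libraries it was 5445629 to 16674966. The limit for an undetected gene, 3 reads, came to 0.105 to 0.181 CPM in the former and 0.183 to 0.526 CPM in the latter. The libraries fell into 2 counting kinds: genes with near-identical copies elsewhere in the genome had a median log2(CPM + 1) of 3.13 to 3.56 in 14 libraries and of 5.30 to 5.98 in 10. All knockout-labelled libraries were of the low kind, and 7 of 8 wild-type libraries were of the high kind, so genotype and counting kind cannot be told apart except through the washed-out wild-type group, which holds both. The 9 macrophage markers summed to 18715 to 40203 CPM in antagonist libraries and to between 15562 and 46879 CPM in memory libraries, with unseparated markers entering as their group average. Lyz2, the macrophage lysozyme, makes up much of these sums: it averaged 21966 to 30727 CPM in the wild-type and 14.5 to 41.8 CPM in the knockout-labelled groups, and the other 8 markers together 12058 to 16625 and 15781 to 18734 CPM. Erythroid, mast cell, lymphocyte and dendritic cell markers reached sums of at most 0.555, 1.28, 7.77 and 8.89 CPM, with 4 or 5 of 5 erythroid markers at 0. The 4 proliferation markers ran from 23.4 to 44.4 CPM in antagonist libraries, against 894 to 1438 CPM in memory libraries. The deeper library of the wild-type repeat exposure stood apart. Its 7 fibroblast markers summed to 1160 CPM (Col1a1 at 492 CPM), against 42.4 CPM in the shallower library of its group and 0.932 to 11.6 CPM in the memory libraries of other groups. Its 6 neutrophil markers summed to 203 CPM, against 22.3 to 108 CPM in the other memory libraries. The part of those cells in the results of that group was not tested, and the counts of called members that rest on it are given with either of its libraries left out. Wherever 1 library of a group is left out, the lone library is assumed to vary like those of the other groups.

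Promoters of 4 members are shown because they hold letters known from hypoxia-inducible factors (ACGTG) or from STAT6 (TTC and GAA with 4 bases between them). Each had risen in at least 1 comparison with IL-4 and was chosen for that. Other members with ACGTG were lower after 24 h of IL-4, among them Pfkfb3 and Pfkm, and so was Fh1 itself. The stretches shown are the 250 bases before the RefSeq gene start, 5′ to 3′ on the gene's strand, build GRCm38.p6 (mm10). Capitals mark ACGTG on either strand in the promoters of lactate dehydrogenase A (Ldha) and hexokinase 2 (Hk2), and the STAT6 letters in those of hexokinase 3 (Hk3) and fumarate hydratase (Fh1).
Ldha, chr7:46845554-46845803, plus strand: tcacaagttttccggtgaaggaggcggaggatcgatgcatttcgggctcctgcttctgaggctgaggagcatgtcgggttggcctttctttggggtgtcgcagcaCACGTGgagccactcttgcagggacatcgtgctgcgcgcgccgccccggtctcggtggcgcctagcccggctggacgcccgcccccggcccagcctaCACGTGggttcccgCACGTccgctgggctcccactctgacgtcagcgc
Hk2, chr6:82774455-82774704, minus strand: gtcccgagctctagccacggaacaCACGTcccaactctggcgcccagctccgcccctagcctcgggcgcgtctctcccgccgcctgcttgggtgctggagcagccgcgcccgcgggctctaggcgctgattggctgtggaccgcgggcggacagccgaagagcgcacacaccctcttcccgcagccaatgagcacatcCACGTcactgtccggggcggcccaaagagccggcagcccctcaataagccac
Hk3, chr13:55021386-55021635, minus strand: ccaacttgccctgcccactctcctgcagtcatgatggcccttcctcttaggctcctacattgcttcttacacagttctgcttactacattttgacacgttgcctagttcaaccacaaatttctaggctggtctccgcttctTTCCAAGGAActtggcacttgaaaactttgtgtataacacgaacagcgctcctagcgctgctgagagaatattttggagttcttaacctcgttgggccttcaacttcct
Fh1, chr1:175625636-175625885, minus strand: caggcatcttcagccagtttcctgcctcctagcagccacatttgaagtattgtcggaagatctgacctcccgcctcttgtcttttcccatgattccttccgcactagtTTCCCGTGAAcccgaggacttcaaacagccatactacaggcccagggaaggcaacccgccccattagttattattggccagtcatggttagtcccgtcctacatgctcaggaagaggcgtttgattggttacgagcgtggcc
In the Ldha promoter ACGTG was read 5 times, but 4 of these are 2 copies of the palindrome CACGTG, the E-box bound by MYC among others, seen on both strands. Ldha also holds the STAT6 letters 241 bases before its start, and Hk3 holds ACGTG 156 bases before its start, both in lower case here. RefSeq promoters were found for 35 members; Idh3a had none. ACGTG was in the upstream window of 22 of 53 member promoters (41.5%, in 14 members), against 16.6% of 32851 promoters of all genes. Promoters of 1 gene can have overlapping windows, so the same letters can count more than once, as in Ogdh. Some windows also lie partly or wholly in exons. CACGTG was in 11.3% of member promoters against 6.0% of all, and the STAT6 letters in 9.4% against 5.9% (Fh1, Gpi1, Hk3, Idh3b and Ldha). A match of letters is a description of the window, not a binding site.

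In macrophages kept with IL-4 for 24 h, 9 of 36 members were higher than with vehicle and 4 were lower (limma, adjusted p under 0.05), and 23 did not pass. Over all genes 18.2% of 11140 tested were called, 9.81% as higher and 8.36% as lower. The median log2 difference of the members was 0.42, against −0.02 for all genes tested. Differences are of log2(CPM + 1), which understates the change of low genes.

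Among transporters and hexokinases 2 of 5 genes rose, Slc2a1 and Hk3. Slc2a1, the glucose transporter GLUT1 (chr4:119108711-119137983, plus strand), read 35.3 and 33.8 CPM with vehicle and 68.7 and 83.2 CPM with IL-4. Its log2 difference was 1.11 (SE 0.17, adjusted p = 0.00424), and the groups did not overlap. Here and below, a lack of overlap between groups of 2 libraries describes the values and adds little to a call. Hk3, a hexokinase of blood cells (chr13:55005985-55021385, minus strand), went from 247 and 227 CPM to 614 and 822 CPM, a log2 difference of 1.58 (SE 0.18, adjusted p = 0.00118). Hk1 and Hk2 did not pass, with log2 differences of −0.14 (SE 0.20) and 0.14 (SE 0.15). Per kilobase of transcript, Hk3 made up 63.0% of the 3 hexokinase messages with vehicle and 84.5% with IL-4, and Hk1 went from 30.1% to 12.1%.

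The 3 phosphofructokinases, whose subunits carry out the committed step of glycolysis, moved in opposite directions. Pfkp, the platelet type (chr13:6579768-6648777, minus strand), read 56.5 and 52.6 CPM with vehicle and 298 and 281 CPM with IL-4. Its log2 difference of 2.39 (SE 0.14, adjusted p = 9.18e-05) was the largest of the 36 members here. Pfkl, the liver type, fell from 101 and 91.5 CPM to 42.9 and 56.2 CPM (log2 difference −0.96, SE 0.17, adjusted p = 0.00915). Pfkm, the muscle type, fell from 24.8 and 23.6 CPM to 14.2 and 13.4 CPM (−0.77, SE 0.19, adjusted p = 0.0335). Neither gene's libraries overlapped between groups. Per kilobase, Pfkp held 27.8% of the phosphofructokinase messages with vehicle and 79.4% with IL-4, while Pfkl went from 54.5% to 15.1% and Pfkm from 17.7% to 5.45%. The summed level of the 3 went from 47.4 to 87.9 CPM per kilobase.

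Pfkfb3, which makes and removes fructose 2,6-bisphosphate, the activator of phosphofructokinase, fell most (chr2:11471433-11554077, minus strand). It read 105 and 93.4 CPM with vehicle and 33.9 and 28.6 CPM with IL-4, a log2 difference of −1.64 (SE 0.22, adjusted p = 0.0025). Its relative Pfkfb4 stood at 130 CPM on average with vehicle and 182 CPM with IL-4 and did not pass (0.47, SE 0.16, adjusted p = 0.0895).

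In lower glycolysis Ldha rose from 299 and 328 CPM to 546 and 658 CPM, a log2 difference of 0.93 (SE 0.21, adjusted p = 0.0231). Eno2, an enolase best known from neurons, rose from 1.01 and 0.824 CPM to 3.77 and 4.22 CPM (1.38, SE 0.28, adjusted p = 0.0148). Aldoa, the aldolase and the most abundant member per kilobase (664 CPM per kilobase with vehicle), averaged 1004 CPM with vehicle and 1799 CPM with IL-4. Its single libraries could not be separated, so its averages entered alone, and its difference of 0.84 did not pass (SE 0.19, adjusted p = 0.0802). Slc16a3, the MCT4 transporter that exports lactate, stood at −0.30 (SE 0.18) and did not pass.

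Of the 17 genes of the citrate cycle and of pyruvate entry 4 rose, 1 fell and 12 did not pass. Mdh2, the mitochondrial malate dehydrogenase (chr5:135778480-135790398, plus strand), read 130 and 129 CPM with vehicle and 282 and 380 CPM with IL-4, a log2 difference of 1.33 (SE 0.17, adjusted p = 0.00226). Cs, citrate synthase, which feeds acetyl-CoA into the cycle, rose from 153 and 139 CPM to 247 and 279 CPM (0.84, SE 0.15, adjusted p = 0.00747). Suclg1, the α subunit of succinyl-CoA ligase, rose from 51.5 and 50.9 CPM to 88.7 and 80.8 CPM (0.72, SE 0.16, adjusted p = 0.0212). Ogdh, the first subunit of oxoglutarate dehydrogenase, rose from 191 and 177 CPM to 257 and 331 CPM (0.66, SE 0.17, adjusted p = 0.0385). In all 4 genes both IL-4 libraries lay above both vehicle libraries, which with 2 libraries per group adds little to the calls.

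Fh1, fumarate hydratase, which turns fumarate into malate just before malate dehydrogenase, went the other way (chr1:175600374-175625635, minus strand). It read 181 and 169 CPM with vehicle and 95 and 99.4 CPM with IL-4, a log2 difference of −0.84 (SE 0.14, adjusted p = 0.00623). Idh3a had a larger ratio than most called genes and did not pass: 13.7 and 15.1 CPM with vehicle against 47.9 and 27.6 CPM with IL-4 (1.28, SE 0.45, adjusted p = 0.0989). Pdk1, a kinase that inhibits pyruvate dehydrogenase, was at −0.61 and did not pass (SE 0.20, adjusted p = 0.0741).

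**Figure D1:**
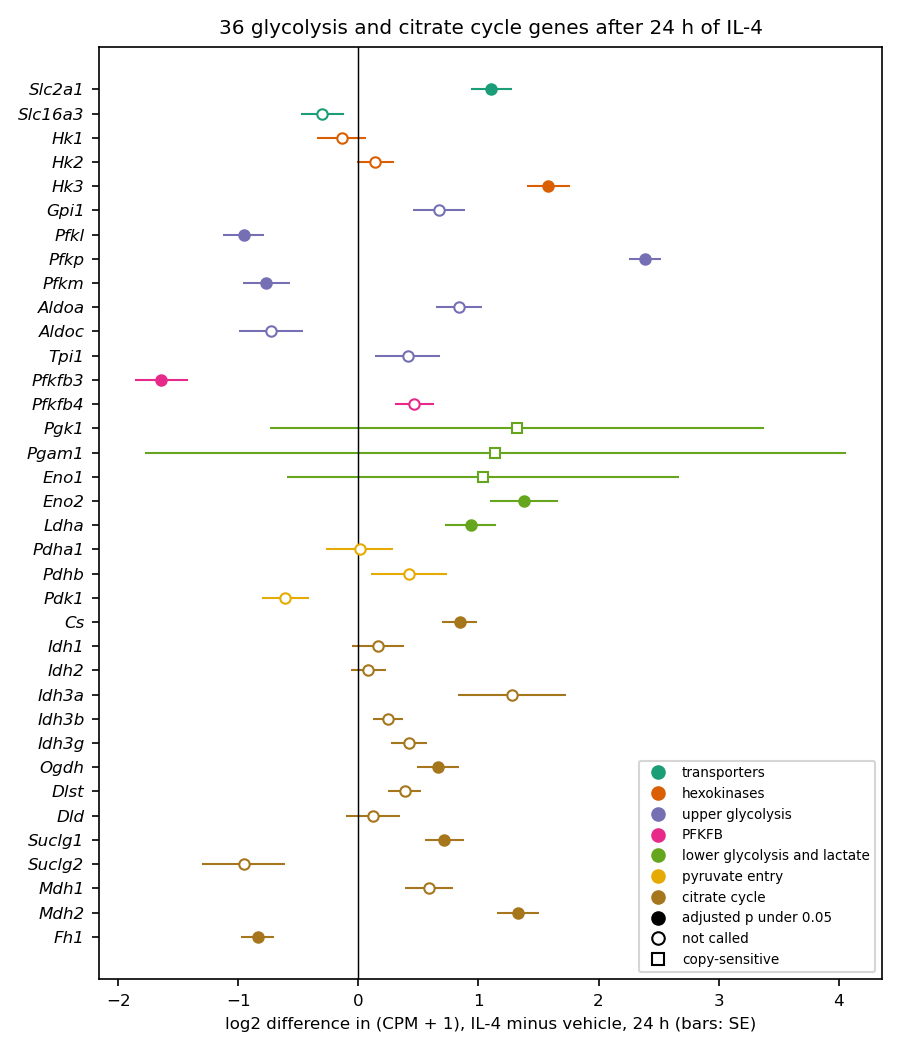
Log2 difference in (CPM + 1) between IL-4 and vehicle at 24 h for the 36 members (horizontal axis, bars are the SE), coloured by role; filled points have adjusted p under 0.05 and squares are Pgk1, Pgam1 and Eno1, whose readings follow the counting kind. Pfkp lies farthest right at 2.39 and Pfkfb3 farthest left at −1.64, and the 3 squares have the widest bars.

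**Figure D2:**
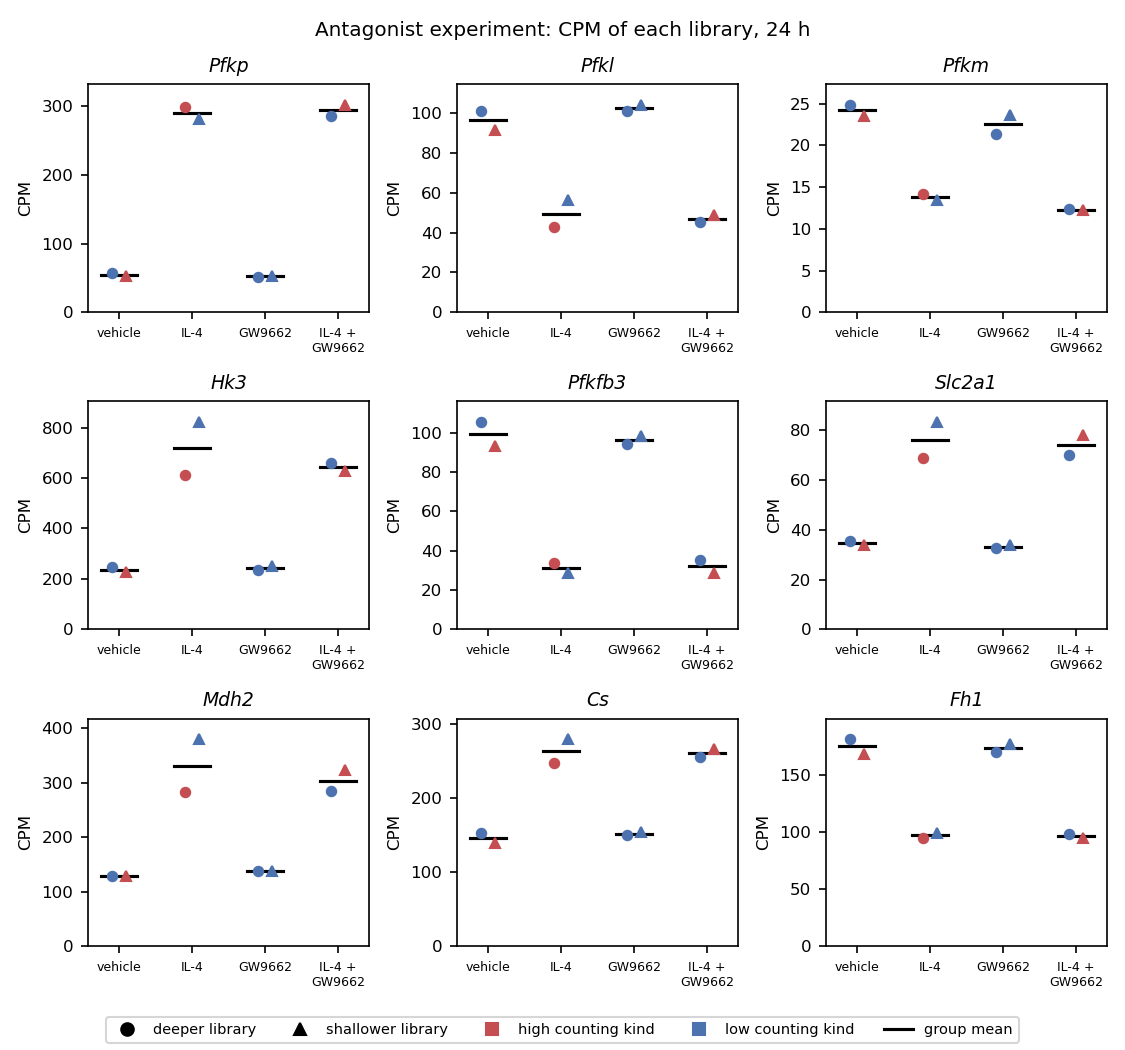
CPM of each library (points, deeper or shallower, coloured by counting kind) and group mean (horizontal lines) for 9 members in the 4 groups of the antagonist experiment. Pfkp, Hk3, Slc2a1, Mdh2 and Cs are high and Pfkl, Pfkm, Pfkfb3 and Fh1 low in both groups with IL-4, with or without GW9662.

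The IL-4 group had an observation weight of 0.21, against 1.23 for vehicle, and its libraries are of different counting kinds. With the deeper IL-4 library left out 25 members were called (18 higher, 7 lower) and 52.8% of all genes, and with the shallower left out 27 members (20 higher, 7 lower) and 36.7% of all genes. Pfkm and Ogdh did not pass when either vehicle library was left out (adjusted p = 0.0503 to 0.0799). Neutrophil markers summed to 361 and 500 CPM with vehicle, 260 and 201 CPM with IL-4 and 205 and 286 CPM with IL-4 and GW9662. The macrophage markers summed to 40203 and 39911 CPM with vehicle, 18715 and 19265 CPM with IL-4 and 18907 and 18843 CPM with IL-4 and GW9662, and Lyz2 alone averaged 23273, 6409 and 6575 CPM. The part of either list in these results was not tested.

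Of the other genes of these pathways, 7 of 17 tested citrate cycle genes were higher at 24 h and 2 lower, beside the 9.81% and 8.36% of all genes. Among the higher ones were Aco1 (1.09) and the succinate dehydrogenase subunit Sdhc (1.06), in log2 differences called by limma. Pck2, which draws oxaloacetate out of the cycle, was lower (−0.99). Among 14 other glycolysis genes 2 were higher, the lactate and pyruvate transporter Slc16a1 (2.23) and the hexose transporter Slc2a6 (1.02). None of 10 further pyruvate entry genes was called, and 1 of 8 pentose phosphate genes, Tkt (0.97), was higher. Of 13 genes of the hypoxia pathway 2 rose, Vhl (1.09) and Car9 (0.83), and 1 fell, the growth factor gene Vegfa (−2.15). Of 8 genes of MYC and mitochondrial biogenesis 3 rose: Myc itself (3.81), the coactivator Ppargc1b (3.10) and Esrra (0.80).

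GW9662 was used to ask which of these levels depend on PPARγ. With GW9662 alone 0 of 36 members passed against vehicle, and so did 0% of 10938 genes. At an unadjusted p under 0.05 there were 1 member and 261 genes, and limma-voom called 0 members and 2 genes. The 33 members other than Pgk1, Pgam1 and Eno1 differed by −0.40 to 0.10. The highest log2 differences were 0.10 for Aldoc (SE 0.12) and 0.10 for Idh3g (SE 0.07), and the lowest −1.97 for Pgam1 (SE 1.35) and −1.33 for Pgk1 (SE 0.95). Pgk1, Pgam1 and Eno1 are called copy-sensitive here, since their readings were more than 2 times higher in the high counting kind in all 4 groups that hold both kinds. With the counting kind as a term in the model Pgam1 and Pgk1 stood at 0.01 and 0.05.

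Added to IL-4, GW9662 left 0 of 36 members called against IL-4 alone (0% of 10867 genes; at an unadjusted p under 0.05, 0 members and 2 genes; limma-voom 0 members and 0 genes). That is fewer genes than chance alone puts under such a p, with the IL-4 group at a weight of 0.21. The test could thus call hardly anything, and its zeros do not show that a level was unchanged. The 95% intervals here and below are from the SE by a normal approximation. With so few libraries the t distribution of the test would make them wider. Pfkp stood at 290 CPM on average with IL-4 and 294 CPM with both agents. Its log2 difference was 0.02, with a 95% interval of −0.24 to 0.28. For Pfkfb3 it was 0.03 (interval −0.39 to 0.46), for Fh1 −0.01 (−0.28 to 0.26), for Hk3 −0.14 (−0.48 to 0.21) and for Mdh2 −0.11 (−0.45 to 0.23). The highest differences were those of Pdha1 (0.32, SE 0.27) and Pdk1 (0.29, SE 0.19), and the lowest those of Aldoc (−0.36, SE 0.27) and Eno2 (−0.27, SE 0.28). With the deeper IL-4 library left out 7 members passed (5 higher, 2 lower), with 17.4% of all genes. The response to IL-4 with GW9662, set against that without it, was called in 0 of 36 members, with the same limit on the test (0% of 11232 genes; limma-voom 0 members; at an unadjusted p under 0.05, 0 members and 14 genes). Its highest values were Pgam1 (1.82, SE 3.19) and Pgk1 (1.30, SE 2.24), and its lowest Aldoc (−0.46, SE 0.29) and Eno2 (−0.34, SE 0.31). Pfkp again held 80.8% of the phosphofructokinase messages per kilobase with both agents and 26.3% with GW9662 alone.

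The memory experiment asked how cells answer a first and a repeat exposure. In wild-type cells 3 h of a first exposure raised 14 of 35 tested members and lowered 1. At this time 49.8% of 11345 genes tested were called, 24.7% as higher, so 15 of 35 is not a result about the members as a group. Eno2 was below 1 CPM in both groups and was not tested. Most of the changes were small: 11 of the 14 lay between 0.34 and 0.57.

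Slc2a1 rose most, from 42.2 and 38.6 CPM to 105 and 107 CPM, a log2 difference of 1.37 (SE 0.09, adjusted p = 1.73e-09). Fh1 came next, from 112 and 125 CPM to 202 and 192 CPM (0.74, SE 0.07, adjusted p = 2.87e-07). Hk2, the inducible hexokinase, rose from 37.4 and 38.1 CPM to 62.1 and 53.3 CPM (0.60, SE 0.09, adjusted p = 6.59e-05). In each of these the groups did not overlap. In the citrate cycle Dlst (0.57), Mdh2 (0.56), Idh3a (0.53), Suclg1 (0.43) and Cs (0.39) rose with Fh1. Pdhb, the β subunit of pyruvate dehydrogenase, rose by 0.51. In glycolysis Pfkl (0.50), Ldha (0.42), Pfkfb4 (0.36), Pfkp (0.34) and Hk3 (0.34) rose. Hk1 was the one member that fell (−0.29, SE 0.06, adjusted p = 0.00156).

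In knockout-labelled cells the first exposure raised 11 of 36 members and lowered 2 (44.2% of 11208 genes called, 21.4% as higher). All 11 were among the 14 that rose in wild-type cells, and Hk1 fell in both. Slc2a1 rose from 41.5 and 44.9 CPM to 111 and 110 CPM (1.34, SE 0.09, adjusted p = 3.42e-09). Fh1 rose from 125 and 119 CPM to 204 and 195 CPM (0.71, SE 0.07, adjusted p = 7.07e-07), and Idh3a from 43.5 and 43.5 CPM to 71.8 and 66.3 CPM (0.65, SE 0.12, adjusted p = 0.000231). The others were Mdh2 (0.48), Dlst (0.42), Pdhb (0.39), Pfkp (0.37), Cs (0.33), Suclg1 (0.31), Ldha (0.28) and Hk3 (0.17). Pfkfb3 (−0.53, SE 0.12, adjusted p = 0.0025) and Hk1 (−0.46, SE 0.07, adjusted p = 2.93e-05) fell.

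The difference of the first response between genotypes was called in 0 of 36 members (0.0348% of 11494 genes, 0.0087% as higher). At an unadjusted p under 0.05 there were 4 members, and limma-voom called 0. Lowest were Pfkfb3 (−0.52, SE 0.17, adjusted p = 0.293) and Hk2 (−0.49, SE 0.14, adjusted p = 0.27), and highest Pdk1 (0.15, SE 0.12) and Idh3a (0.12, SE 0.16). For Slc2a1 it was −0.03 with a 95% interval of −0.27 to 0.21, and for Fh1 −0.03 with −0.23 to 0.17.

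Some members thus stood on opposite sides at 3 h and 24 h. Fh1 differed by 0.74 at 3 h in wild-type cells and by −0.84 at 24 h, and Pfkl by 0.50 and −0.96. The 2 experiments were normalised separately and differ in culture time and in their controls. Fh1 averaged 66.4 CPM per kilobase with vehicle and 44.8 in unstimulated wild-type cells, and Pfkl 25.8 and 18.3. The 4 proliferation markers summed to 28.9 and 1366 CPM in the same 2 groups. The log2 differences are therefore only set side by side, and the change between the times was not tested. Pfkp held 43.2% of the phosphofructokinase messages per kilobase in unstimulated wild-type cells and 44.1% after the first exposure. In the antagonist experiment it held 27.8% with vehicle and 79.4% with 24 h of IL-4.

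Of the other pathway genes, 6 of 8 genes of MYC and mitochondrial biogenesis rose in the first exposure in each genotype and 1 fell, where 24.7% of all genes rose in wild-type and 21.4% in knockout-labelled cells. Myc rose by 2.91 in wild-type and 2.94 in knockout-labelled cells, Ppargc1b by 1.92 and 1.90, and Pprc1 by 1.25 and 1.20. In the hypoxia list 5 of 14 rose and 3 fell in wild-type cells, with Vegfa at −1.78 and Egln3 at 0.93. In knockout-labelled cells 2 of 13 rose and 3 fell, with Vegfa at −1.75 and Vhl at 0.67. Of 15 other glycolysis genes, 5 and 6 rose and 1 fell in each genotype, with Adpgk, an ADP-dependent glucokinase, at 0.95 and 0.88 and Slc2a6 at 1.01 and 0.78. Pdp1, a phosphatase that activates pyruvate dehydrogenase, was lower in both (−1.18 and −1.16), as was Pck2 (−0.66 and −0.87).

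**Figure D3:**
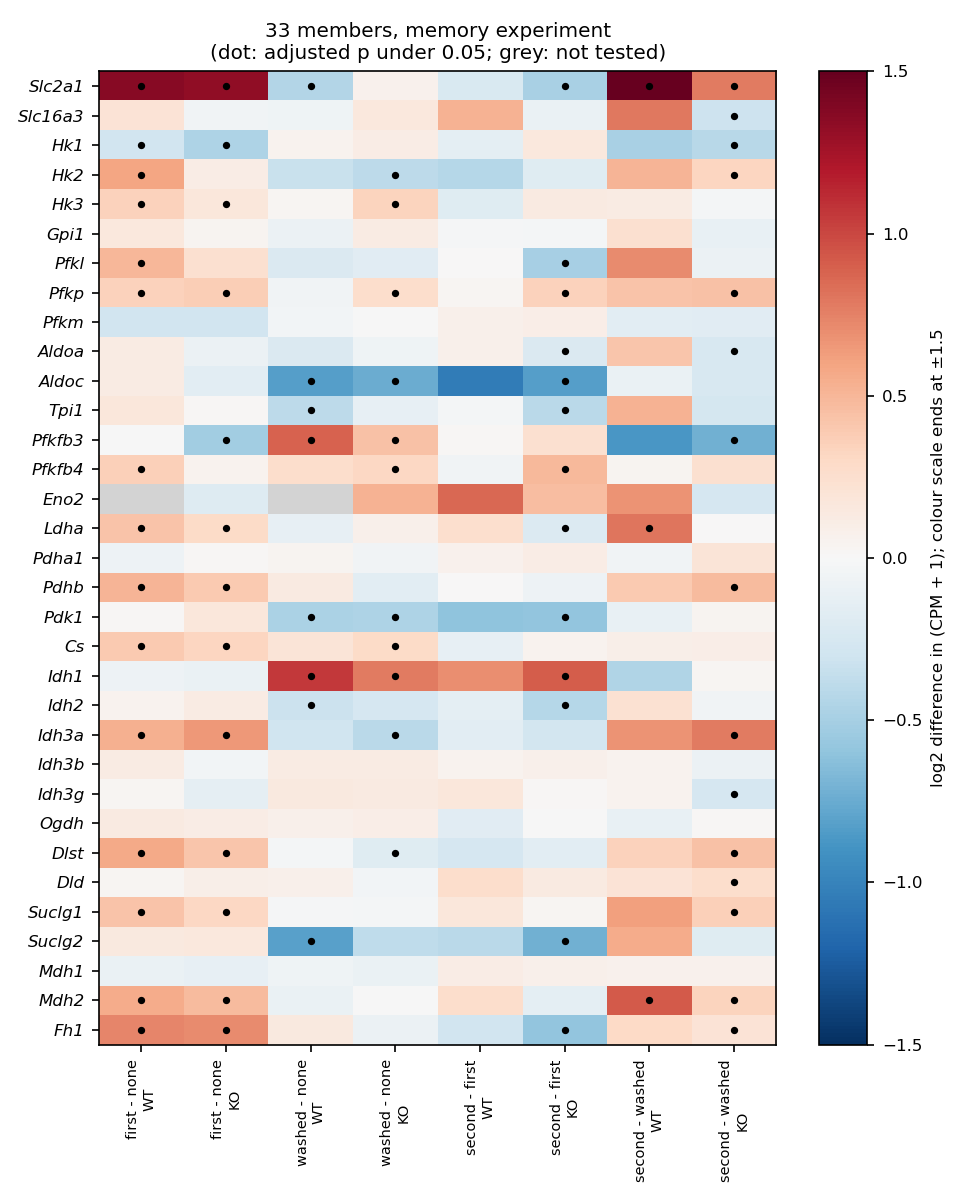
Log2 differences in (CPM + 1) of the 33 members other than the copy-sensitive Pgk1, Pgam1 and Eno1 (rows) in 8 comparisons of the memory experiment (columns, WT wild type, KO knockout-labelled); red is higher, blue lower, grey not tested, dots have adjusted p under 0.05. Slc2a1 is red in both first exposures (1.37 and 1.34) and Idh1 after washout (1.06 and 0.78), where Aldoc is blue (−0.82 and −0.75).

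Washed-out cells, collected 24 h after IL-4 was removed, show what an earlier exposure left behind. In wild-type cells 2 of 35 members were higher than in unstimulated cells and 7 were lower (14.5% of 11369 genes called, 7.43% as higher and 7.12% as lower). In knockout-labelled cells 6 of 36 were higher and 5 lower (20% of 11230 genes called, 9.56% higher and 10.5% lower). Idh1 and Pfkfb3 were higher and Aldoc and Pdk1 lower in both genotypes.

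Idh1, the cytosolic isocitrate dehydrogenase that makes NADPH (chr1:65158616-65186500, minus strand), changed most among members that are not copy-sensitive. It read 263 and 254 CPM in unstimulated and 501 and 582 CPM in washed-out wild-type cells, a log2 difference of 1.06 (SE 0.09, adjusted p = 1.66e-06). In knockout-labelled cells it went from 258 and 233 CPM to 459 and 387 CPM (0.78, SE 0.08, adjusted p = 3.31e-06). In neither genotype did the groups overlap. After the first 3 h of IL-4 it had averaged 245 CPM in wild-type and 228 CPM in knockout-labelled cells, and with 24 h of IL-4 in the antagonist experiment it read 368 and 215 CPM.

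Pfkfb3 was lower than with vehicle at 24 h with IL-4 present, and higher than in unstimulated cells after washout. These comparisons come from separate experiments with unlike control levels, so they do not show a swing from a low to a high level. Pfkfb3 averaged 21.5 CPM per kilobase with vehicle and 6.74 with IL-4 at 24 h. In the memory experiment Pfkfb3 averaged 5.99 CPM per kilobase in unstimulated and 11.2 in washed-out wild-type cells. It read 25.7 and 29.8 CPM in unstimulated and 49.7 and 54.2 CPM in washed-out wild-type cells (0.88, SE 0.15, adjusted p = 0.000858), and 36.2 and 34.5 CPM against 51.1 and 45.9 CPM in knockout-labelled cells (0.44, SE 0.12, adjusted p = 0.0191). Aldoc, an aldolase isozyme best known from brain, fell from 40.1 and 42.2 CPM to 25.1 and 20.6 CPM in wild-type (−0.82, SE 0.14, adjusted p = 0.000898) and from 38.8 and 41.0 CPM to 20.2 and 27.1 CPM in knockout-labelled cells (−0.75, SE 0.12, adjusted p = 0.000282). Pdk1 fell from 75.3 and 69.6 CPM to 48.5 and 55.8 CPM (−0.47, SE 0.11) and from 67.3 and 60.3 CPM to 45.8 and 46.2 CPM (−0.46, SE 0.09). No group overlapped with its control in these 3 genes.

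In wild-type cells Suclg2, the GTP-linked β subunit of succinyl-CoA ligase (−0.81), Slc2a1 (−0.44), Tpi1 (−0.39) and Idh2 (−0.32) were also lower. So was Pgk1, at −1.97, but this member is copy-sensitive and its washed-out libraries of high and low kind read 102 and 13.8 CPM. Suclg2 read 14.7 CPM in the high and 9.19 CPM in the low library of that group, against 21.9 and 20.5 CPM in unstimulated cells. In knockout-labelled cells Hk3 (0.34), Pfkfb4 (0.31), Cs (0.28) and Pfkp (0.27) were higher, and Idh3a (−0.41), Hk2 (−0.39) and Dlst (−0.18) were lower. The washout change differed between genotypes in 0 of 36 members (0.00869% of 11507 genes; 7 members at an unadjusted p under 0.05; limma-voom 0), with Pgam1 (2.09, SE 0.81) and Pgk1 (1.44, SE 0.61) highest and Pfkfb3 (−0.44, SE 0.20) and Pdhb (−0.29, SE 0.16) lowest. Without the deeper washed-out wild-type library 6 passed, all higher in knockout-labelled cells, with 5.56% of all genes.

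These counts depend on single libraries. Without the deeper unstimulated wild-type library 3 members were called in wild-type cells (2 higher, 1 lower; 7.4% of all genes), and without the deeper washed-out one 14 (2 higher, 12 lower; 22.7% of all genes). In knockout-labelled cells 2 (1 higher, 1 lower) were called without the deeper unstimulated library, 4 (2 and 2) without the shallower, and 6 (4 and 2) without the deeper washed-out library, with 7.87%, 7.61% and 16.6% of all genes. Neutrophil markers moved too, from 103 and 96.2 CPM to 42.0 and 34.9 CPM in wild-type and from 54.5 and 67.6 CPM to 30.7 and 29.6 CPM in knockout-labelled cells, and their part was not tested. Idh1 passed in all of these, with log2 differences of 0.95 to 1.17 in wild-type and 0.66 to 0.90 in knockout-labelled cells. Among other pathway genes Ddit4, a stress gene of the hypoxia list, was higher after washout (1.48 and 1.42), and Slc2a6 too (1.00 and 1.08), while Myc (−0.91 and −0.53) and Pprc1 (−0.66 and −0.55) were lower.

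**Figure D4:**
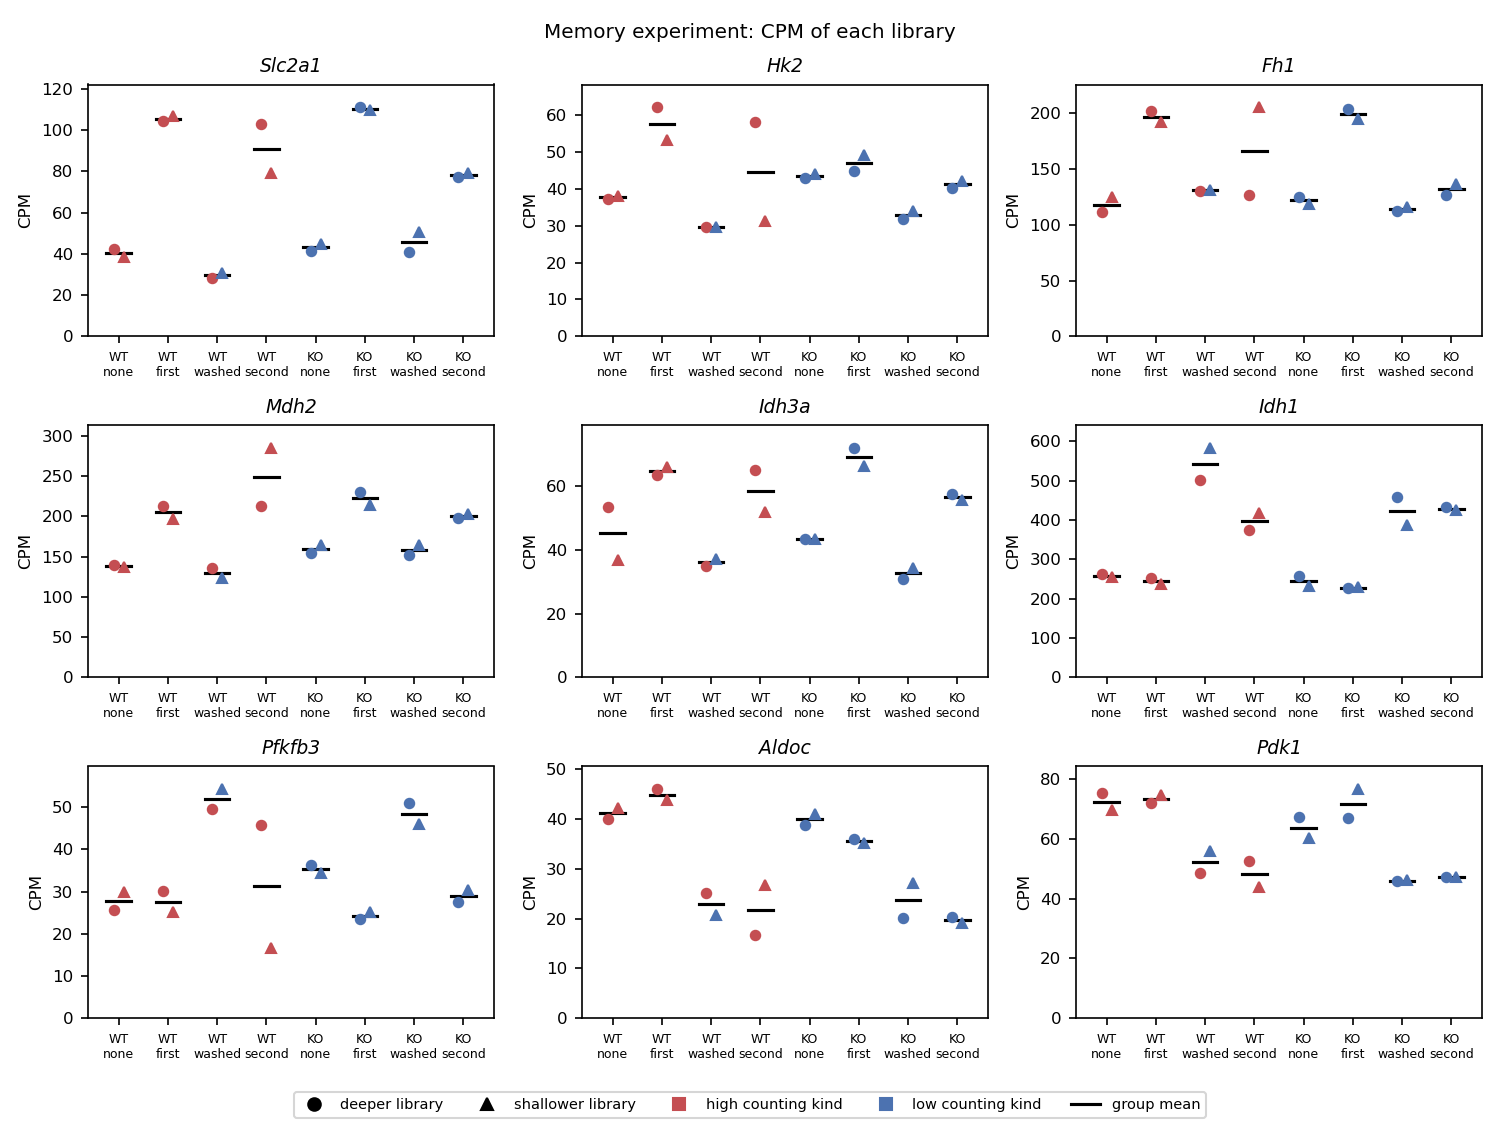
CPM of each library (points, deeper or shallower, coloured by counting kind) and group mean (horizontal lines) for 9 members in the 8 groups of the memory experiment (WT wild type, KO knockout-labelled; none unstimulated, first, washed and second for the first exposure, washout and repeat exposure). Idh1 is high in all 8 libraries exposed to IL-4 earlier, and the 2 libraries of the wild-type repeat exposure lie apart in Hk2, at 58.1 and 31.3 CPM.

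In knockout-labelled cells the repeat exposure reached a level that differed from the first one in 13 of 36 members, 3 higher and 10 lower (22.7% of 11190 genes called, 12.7% higher and 9.96% lower). Idh1 read 227 and 229 CPM after the first and 433 and 425 CPM after the repeat exposure (0.91, SE 0.08, adjusted p = 8.83e-07). Pfkfb4 went from 84.2 and 70.7 CPM to 107 and 111 CPM (0.49, SE 0.09) and Pfkp from 111 and 105 CPM to 136 and 139 CPM (0.35, SE 0.08). Lower after the repeat exposure were Aldoc (−0.82), Suclg2 (−0.72), Fh1 (−0.60), Pdk1 (−0.59), Pfkl (−0.49), Slc2a1 (−0.49), Idh2 (−0.43), Tpi1 (−0.41), Aldoa (−0.22) and Ldha (−0.20). Slc2a1 read 111 and 110 CPM after the first and 77.4 and 79.3 CPM after the repeat exposure, and Fh1 204 and 195 CPM against 127 and 137 CPM. Neither gene's groups overlapped. Without the shallower repeat-exposure library 8 members were called (2 higher, 6 lower), with 11.2% of all genes. Neutrophil markers summed to 48.2 and 57.2 CPM after the first and 22.3 and 29 CPM after the repeat exposure, and their part was not tested.

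In wild-type cells 0 of 36 members passed between the repeat and the first exposure (0.328% of 11880 genes; 3 members at an unadjusted p under 0.05; limma-voom 0). Highest were Eno2 (0.87, SE 0.79) and Idh1 (0.69, SE 0.24, adjusted p = 0.288), and lowest Aldoc (−1.05, SE 0.37, adjusted p = 0.279) and Pdk1 (−0.60, SE 0.27). The repeat-exposure group had a weight of 0.08, and its deeper library is the one with the most fibroblast signal. Without that library 17 members were called (8 higher, 9 lower) and 50% of all genes, with Idh1 at 0.77 (adjusted p = 9.82e-05), Pdk1 at −0.73 (adjusted p = 0.000151) and Aldoc at −0.73 (adjusted p = 0.00125). Without the shallower library 11 were called (6 higher, 5 lower) and 31.1% of all genes, with Idh1 at 0.62, Pdk1 at −0.47 and Aldoc at −1.36.

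Against washed-out cells, the repeat exposure raised 10 of 36 members in knockout-labelled cells and lowered 5 (35.9% of 11282 genes called, 19.3% higher). Idh3a rose from 31.0 and 34.2 CPM to 57.6 and 55.7 CPM (0.78, SE 0.12, adjusted p = 8.59e-05), and Slc2a1 from 40.7 and 50.6 CPM to 77.4 and 79.3 CPM (0.77, SE 0.09, adjusted p = 4.97e-06). Pdhb (0.47), Pfkp (0.44), Dlst (0.44), Suclg1 (0.36), Mdh2 (0.34), Hk2 (0.32), Dld (0.26) and Fh1 (0.20) rose as well. Pfkfb3 fell from 51.1 and 45.9 CPM to 27.5 and 30.5 CPM (−0.72, SE 0.13, adjusted p = 0.000317), and Hk1 (−0.42), Slc16a3 (−0.31), Idh3g (−0.26) and Aldoa (−0.24) fell too. Without the deeper repeat-exposure library 8 members were called (6 higher, 2 lower), and without the shallower 9 (7 and 2), with 24.6% and 24.2% of all genes.

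In wild-type cells 3 members rose against washed-out cells and none fell (5.11% of 11958 genes called, 2.77% higher and 2.34% lower). Slc2a1 read 28.5 and 30.6 CPM washed out and 103 and 79.5 CPM after the repeat exposure (1.58, SE 0.28, adjusted p = 0.00468). Mdh2 rose from 136 and 123 CPM to 213 and 285 CPM (0.92, SE 0.22, adjusted p = 0.025), and Ldha from 381 and 319 CPM to 649 and 568 CPM (0.80, SE 0.22, adjusted p = 0.0474). The groups did not overlap in any of the 3. Without the deeper repeat-exposure library 24 members were called (19 higher, 5 lower) and 59.5% of all genes, with Slc2a1 at 1.40, Mdh2 at 1.13 and Ldha at 0.70. Without the shallower repeat-exposure library 20 were called (17 and 3) and 36.4% of all genes, and without the deeper washed-out library 7 (all higher) and 12.8%. The restimulation response differed between genotypes in 0 of 36 members (0% of 12072 genes; 7 members and 1141 genes at an unadjusted p under 0.05; limma-voom 0 members), and without the deeper wild-type repeat-exposure library in 18 (4 higher, 14 lower in knockout-labelled cells), with 42.4% of all genes. Without the shallower one it was 10 (1 and 9), with 13.2% of all genes, and without the deeper washed-out wild-type library 6 (all lower), with 4.35%. Highest in the fit of all libraries were Idh1 (0.47, SE 0.26) and Pdha1 (0.24, SE 0.28), and lowest Pgam1 (−2.40, SE 1.75) and Pgk1 (−1.77, SE 1.31).

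The rise of a member in the repeat exposure was then set against its rise in the first. In knockout-labelled cells this difference was called for 2 of 36 members, both smaller in the repeat exposure (1.47% of 11435 genes called, 0.49% lower). For Slc2a1 it was −0.56 (SE 0.13, adjusted p = 0.0379) and for Fh1 −0.50 (SE 0.10, adjusted p = 0.0253). Slc2a1 had risen by 1.34 the first time and rose by 0.77 in the repeat, and Fh1 by 0.71 and 0.20. Both calls were lost when either repeat-exposure library, either unstimulated library, the deeper first-exposure or the shallower washed-out library was left out (over all single libraries left out, Slc2a1 ranged from −0.71 to −0.41 and Fh1 from −0.56 to −0.45). Without the shallower first-exposure library Fh1 alone passed. In wild-type cells 0 of 36 passed (0.00828% of 12074 genes; 0 members at an unadjusted p under 0.05; limma-voom 0), with Slc2a1 at 0.21 (SE 0.30) and Fh1 at −0.43 (SE 0.25). Pgam1 (2.11, SE 1.74) and Pgk1 (1.76, SE 1.30) were highest and Pfkfb3 (−0.87, SE 0.42) lowest there. Without the deeper repeat-exposure library 10 members passed in wild-type cells (4 higher, 6 lower), without the shallower 6 (3 and 3) and without the deeper washed-out library 2 (both higher), with 29.5%, 16.4% and 3.4% of all genes.

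The genotypes were compared directly in each of the 4 states, with the counting kind running along with genotype. So did Lyz2, at 30727 and 41.8 CPM in unstimulated wild-type and knockout-labelled cells, while the other 8 macrophage markers summed to 15787 and 18364 CPM; the part of this in the comparisons was not tested. In unstimulated cells 2 of 36 members were higher in knockout-labelled than in wild-type cells and 5 lower (18.3% of 11280 genes called, 7.75% higher and 10.6% lower). Hk3 (0.24, SE 0.06, adjusted p = 0.0165) and Mdh2 (0.20, SE 0.07, adjusted p = 0.044) were the higher ones. Ldha averaged 381 CPM in wild-type and 304 CPM in knockout-labelled cells (−0.32, SE 0.06, adjusted p = 0.00239), and Suclg2 21.2 and 13.6 CPM (−0.61, SE 0.15, adjusted p = 0.00863). The remaining 3 lower members were Pgam1 (−3.69), Pgk1 (−2.86) and Eno1 (−1.97), all copy-sensitive. After the first exposure 0 members were higher and 6 of 35 lower (9.18% of 11245 genes called, 7.59% lower): the same 3 (Pgam1 −3.67, Pgk1 −2.82, Eno1 −2.13), Suclg2 (−0.61), Ldha (−0.46, SE 0.07, adjusted p = 0.000313) and Pfkfb4 (−0.42, SE 0.09, adjusted p = 0.00471). With the counting kind as a term no member passed in either state, but there the effect of kind is set by the 2 washed-out wild-type libraries alone. In unstimulated cells 4 members passed without the deeper wild-type library, 3 without the deeper and 4 without the shallower knockout-labelled library, with 7.43%, 6.05% and 5.53% of all genes.

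The washed-out state is the one in which a wild-type library shares the counting kind of the knockout-labelled ones. There 2 of 36 members differed, both higher in knockout-labelled cells (3.37% of 11347 genes called, 1.43% higher and 1.94% lower). Slc2a1 read 28.5 and 30.6 CPM in wild-type and 40.7 and 50.6 CPM in knockout-labelled cells (0.60, SE 0.11, adjusted p = 0.0105). Hk3 read 301 and 273 CPM against 397 and 446 CPM (0.55, SE 0.08, adjusted p = 0.00335). The groups did not overlap in either gene. With the counting kind as a term, which here amounts to comparing the knockout-labelled libraries with the 1 wild-type library of the low kind, the differences were 0.55 for Slc2a1 (adjusted p = 0.00704) and 0.62 for Hk3 (adjusted p = 0.000272). Without the shallower knockout-labelled library 1 member passed (0.626% of all genes) and Slc2a1 stood at 0.45 (adjusted p = 0.11), while Hk3 ranged from 0.47 to 0.63 over the 4 single libraries left out. Leaving out the deeper wild-type library gave 10 members (9 higher, 1 lower), the shallower 6 (2 and 4), and the deeper knockout-labelled one 6 (5 and 1), with 13.7%, 8.98% and 7.94% of all genes.

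After the repeat exposure 0 of 36 members passed between genotypes (0.0252% of 11894 genes; 5 members at an unadjusted p under 0.05; limma-voom 2). Hk3 (0.40, SE 0.21) and Pfkp (0.31, SE 0.23) were highest and Pgam1 (−4.0, SE 1.62) and Pgk1 (−3.19, SE 1.21) lowest. Without the deeper wild-type library 26 members passed (7 higher, 19 lower) and 53.5% of all genes, and without its sister 16 (3 higher, 13 lower) and 31.7%. Pfkp held 59.9% of the phosphofructokinase messages per kilobase in knockout-labelled cells in that state and 44.0% in wild-type cells, and 43.6% and 43.2% in unstimulated cells.

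The members Pgk1 (phosphoglycerate kinase, chrX:106187100-106203699, plus strand), Pgam1 (phosphoglycerate mutase, chr19:41911923-41918660, plus strand) and Eno1 (the main enolase, chr4:150236721-150248879, plus strand) follow the counting kind. Of the 50-base words of their transcripts 67.4%, 41.6% and 72.2% also occur in other genes. In the 4 groups that hold both kinds, the library of the high kind exceeded its sister 6.62 to 8.23 times for Pgk1, 12.3 to 17.6 times for Pgam1 and 3.32 to 6.94 times for Eno1, while the other 33 members stayed between 0.63 and 2.14 times. Among these Aldoa could be checked in 1 of the 4 groups only, the washed-out wild-type one (1.14 times). Some of these 33 share words with other genes too, among them Pdhb (29.9%), Suclg2 (21.7%) and Ldha (18%). Suclg2 was higher in the high kind in all 4 groups (1.16 to 2.14 times), and so was Pdhb (1.01 to 1.46 times). Pgk1 in the vehicle group read 8.58 CPM in the low and 56.8 CPM in the high library, and in the IL-4 group 19.9 and 164 CPM. Within each kind the IL-4 library was thus the higher of the pair for Pgk1. Pgam1 went from 6.38 to 17.4 CPM in the low and from 108 to 213 CPM in the high kind, and Eno1 from 1.81 to 5.85 CPM and from 10.8 to 19.5 CPM. With 1 library of each kind per group these are single values. Over both kinds the log2 differences of 1.32 for Pgk1 (SE 2.06), 1.14 for Pgam1 (SE 2.92) and 1.04 for Eno1 (SE 1.63) did not pass. With the counting kind as a term in the model the same differences passed, with SEs of 0.21 for Pgk1 (adjusted p = 6.99e-09), 0.20 for Pgam1 (adjusted p = 2.35e-07) and 0.30 for Eno1 (adjusted p = 0.00295), and 23 members passed in all, with 28.9% of all genes. Without the deeper IL-4 library, which is of the high kind, Pgk1 stood at −0.17 and Pgam1 at −0.63 in the model without that term.

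In the memory experiment Pgam1 read 146 CPM in the washed-out wild-type library of the high kind and 9.08 CPM in that of the low kind. All 8 knockout-labelled libraries, of the low kind too, read 9.40 to 12.9 CPM for it, and the other 6 wild-type libraries 134 to 211 CPM.

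**Figure D5:**
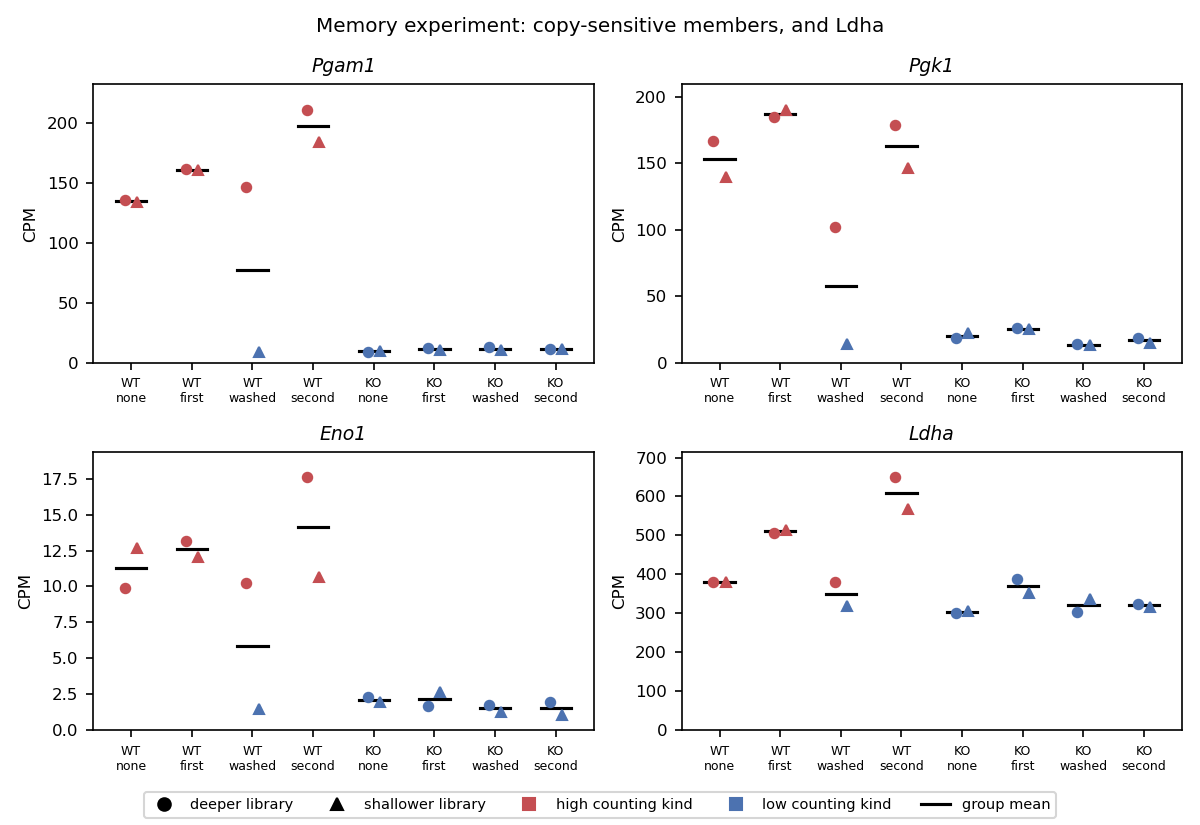
CPM of each library (circles deeper, triangles shallower, coloured by counting kind) and group mean (horizontal lines) for Pgam1, Pgk1, Eno1 and Ldha, which is not among the copy-sensitive members, in the 8 groups of the memory experiment (WT wild type, KO knockout-labelled). The low-kind library of the washed-out wild-type group lies with the knockout-labelled libraries for Pgam1 at 9.08 CPM, Pgk1 at 13.8 CPM and Eno1 at 1.47 CPM.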

How the data were processed

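Poly-A RNA of 24 samples was sequenced on an Illumina HiSeq after TruSeq preparation, per the labels. The build was mm10, and the tools were Cufflinks (2.0.2) with TopHat2 (2.0.7), per the submitters' processing notes; the counting step and gene models are not given in the sources used here. The deposited values are a signal in CPM, averaged by the authors over the 2 samples of each group, in 2 tables of 23420 genes. CPM are reads of a gene scaled to a size set for its library, which was not the plain total. Column sums were 951943 CPM for vehicle and 963431 CPM for GW9662, against 1054530 CPM for IL-4 and 1035060 CPM for both agents. The part of this scaling in the 24 h differences was not tested. CPM values are multiples of what 1 read is worth, so each average was separated into whole reads of a deeper and a shallower library. Of 171808 values above 0, 170707 (99.4%) had a single solution and 275 a plausible one. The other 826 had no solution, or several with none to prefer, and stayed unseparated. Of the plausible ones 15, in groups that hold both counting kinds, were then set back to unseparated. On simulated averages 166018 of 166018 single and 279 of 279 plausible solutions were right. The 2 simulated libraries of a column shared their means up to a small spread. Plausible solutions are picked by the likeness of the 2 libraries, so for them pairs that differ much were not tried. An unseparated average entered the model once with weight 2 (Aldoa in all 4 antagonist groups and in the wild-type first exposure, Hk3 in the latter). The separated libraries carry no sample numbers.

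Tests used limma (3.58.1, R 4.3.3) with an intensity trend on log2(CPM + 1), group variance weights (0.08 to 2.66) and Benjamini-Hochberg adjustment over genes averaging at least 1 CPM in the groups compared, fitted on all groups of a table, with Python 3.11.15, pandas 2.3.3 and numpy 2.4.6 for the rest. The design had foreseen values per sample; the averages replaced them. Libraries were assigned a counting kind from genes sharing at least 50% of their 50-base words with other genes (113 and 130 genes). A member was called copy-sensitive where the high kind exceeded the low more than 2 times in all 4 mixed groups. Alternatives were a pseudocount of 0.25 CPM, no filter, no group weights, limma-voom on the separated reads, the counting kind as a term, and each library left out. The 4 differences of responses other than the first and the GW9662 one, and leaving out the 3 copy-sensitive members, were added after seeing the data. Gene positions are from GENCODE M21 (GRCm38) and promoters from RefSeq (GRCm38.p6). Counting error alone sets the 3-read limits.

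The members and lists were chosen with earlier results of these data known. Named were all members called in a comparison, or the 2 highest and 2 lowest where none was, and at most 4 called genes of each further pathway list. Uncalled members given beside called isozymes or in another comparison were chosen after their values were seen.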

Additional observations from a re-analysis of the deposited data

Results flagged for a closer look

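The rise of 2 members with 3 h of IL-4 in knockout-labelled cells differed between the repeat and the first exposure, by the limma test of the difference itself. That comparison was added after the data were seen, and 1.47% of 11435 genes were called in it. Both calls depended on single libraries, as given above. The log2 difference of the rises was −0.56 for Slc2a1, the glucose transporter (SE 0.13, adjusted p = 0.0379), and −0.50 for Fh1, fumarate hydratase (SE 0.10, adjusted p = 0.0253). Both genes started from like levels in the 2 exposures, with Slc2a1 at 43.2 CPM on average unstimulated and 45.6 CPM washed out, and Fh1 at 122 and 114 CPM. Without group weights the adjusted p was 0.78 for Slc2a1 and 1.00 for Fh1.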

How the results depend on the processing

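No paired analysis was possible because the separated libraries carry no replicate number. Of 155 results on named members, a pseudocount of 0.25 CPM left 151 on the same side of the threshold, limma-voom 150, no filter on low values 144, the counting kind as a term 124 and no group weights 94. Without group weights the members called were 22 for IL-4 at 24 h, 8 for the first exposure in knockout-labelled cells, 4 and 3 for washout in wild-type and knockout-labelled cells, 4 and 5 for repeat against first exposure, and 18 and 5 for repeat exposure against washout. The share of all genes moved too: for IL-4 at 24 h it was 32.2% of 11140 without group weights, against 18.2% in the main fit. Counts given here without such a share are not results about the members as a group. Between genotypes they were 2 unstimulated, 3 after the first exposure, 0 washed out and 9 after the repeat, and 0 for the difference of the 2 responses in knockout-labelled cells. With the counting kind as a term 23 were called for IL-4 at 24 h, and 0, 0 and 10 between genotypes in unstimulated, first-exposure and washed-out cells. Leaving out the 3 copy-sensitive members gave 4 and 3 between genotypes in the former 2 states. Without a filter 1 was called for repeat exposure against washout in wild-type cells and 1 for the difference of responses in knockout-labelled cells, and limma-voom called 2 between genotypes after the repeat. The causes of these shifts were not tested. With single libraries left out the called members ranged from 11 to 27 for IL-4 at 24 h, 0 to 0 for GW9662, 0 to 7 for GW9662 added to IL-4 and 0 to 0 for the response with against without GW9662. For wild-type and knockout-labelled cells they ranged from 14 to 15 and 10 to 12 (first exposure), 3 to 14 and 2 to 8 (washout), 0 to 17 and 8 to 13 (repeat against first), 2 to 24 and 8 to 15 (repeat against washout), and 0 to 10 and 0 to 2 (difference of responses). Between genotypes they ranged from 3 to 6 unstimulated, 4 to 5 after the first exposure, 1 to 10 washed out and 0 to 26 after the repeat, and from 0 to 0, 0 to 6 and 0 to 18 for the first, washout and restimulation responses. Directions turned mostly in copy-sensitive members. With the counting kind as a term GW9662 gave 0.0092 for Pgam1, 0.052 for Pgk1 and −0.0074 for Aldoc, and the response with against without GW9662 −0.078 for Pgk1 and −0.16 for Pgam1. Between genotypes that term gave 0.18 for Pgam1, 0.22 for Eno1 and 0.0054 for Suclg2 in unstimulated cells, and 0.20, 0.054 and 0.012 after the first exposure. With single libraries left out, IL-4 at 24 h gave −0.17 (without the deeper IL-4 library) to 2.81 for Pgk1 and −0.80 (without the deeper vehicle library) to 3.09 for Pgam1, which stood at −0.63 without the deeper IL-4 library. Hk1 ranged from −0.31 to 0.031, the latter without the deeper IL-4 library. The response with against without GW9662 ranged from −0.19 to 2.79 for Pgk1 and from −0.20 to 3.84 for Pgam1. It was below 0 for Pgk1 without the shallower IL-4 library or the shallower library of both agents (−0.14), and for Pgam1 without the latter or the shallower vehicle library (−0.13). Pdha1 ranged from −0.18 (without the shallower IL-4 library) to 0.83 for GW9662 added to IL-4, and from −0.22 (without the shallower wild-type repeat library) to 0.70 in the restimulation response. Idh3a ranged from −0.14 (without the deeper unstimulated wild-type library) to 0.38 in the first response between genotypes.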
